A study of Mus musculus with 2 samples.

Results

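Genes of fatty acid oxidation and acyl-CoA handling were measured in monocytes sorted from mouse spleen after surgery that reduces kidney mass. The set holds 35 genes, taken by gene name from the 24787 names on the array that a RefSeq table also holds. It was drawn up as a pathway, with earlier results of these data known, and uses no signal threshold. The mice were ICR, an outbred stock, and the labels name no allele, transgene or drug. The sham group underwent the operation without loss of kidney tissue, and the 5/6 nephrectomy group (5/6Nx) lost most of it, a model of chronic kidney disease. Cells of both groups were stained for CD11b and Ly6c and sorted by flow cytometry 8 weeks later, and total RNA from each group was labelled with Cy3 and read on 1 Agilent array. The age and number of mice behind each RNA sample are not given in the sources used here. Since each group has a single array, replicate error is unknown, no test was run, and every difference describes these arrays only.

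Fatty acids are activated to acyl-CoA by synthetases, carried into mitochondria as carnitine esters, and shortened in a repeating cycle of dehydrogenation, hydration, a further dehydrogenation and thiolysis. Electrons from the first step leave through the electron transfer flavoprotein. Peroxisomes shorten very long and branched chains, thioesterases release the free acid, and many of these genes are targets of the peroxisome proliferator-activated receptors (PPARs). Myeloid cells shift between fatty acid oxidation and glycolysis with their state of activation.

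The 5/6Nx array was the brighter one, with 67.0% of 59305 non-control spots well above background against 63.0% on the sham array. Values were therefore scaled. Each processed intensity was divided by its array's 75th percentile, a difference is the log2 ratio of 5/6Nx to sham, and a gene stands for its brightest probe well above background on both arrays. The sort antigens were present on both arrays. Itgam, which encodes CD11b, differed by -0.35, Ly6c1 by 1.98 and Ly6c2 by 1.98, and the probes may not separate these Ly6c paralogs. All 10 monocyte markers were measured, with a median difference of 0.02 and with 3 at least 2-fold higher and 1 lower on the 5/6Nx array. The median hides a wide range, from Cx3cr1 at -4.24 (18406 and 1206) to Fcgr1 at 2.63, and the other higher markers were Ly6c1 and Ly6c2. The summed intensity of monocyte markers was 567826 in sham and 880873 in 5/6Nx. That sum includes Ly6c1 (43112 and 210831) and Ly6c2 (43666 and 213343). Of 10 T cell markers 9 were measured, with a median of 5.13, 7 of them higher, and 1 more was above background on the 5/6Nx array only. Their summed intensity was 3236 in sham and 31695 in 5/6Nx. Of 9 NK cell markers 4 were measured and higher, with a median of 5.51 and summed intensities of 305.4 and 38562, and the other 5, Ncr1 among them, were above background in 5/6Nx alone. Markers of B cells (5 of 8 measured), neutrophils (6 of 9), dendritic cells (4 of 8) and red pulp macrophages (6 of 8) had medians of 0.68, 0.38, 2.50 and 1.24. Their summed intensities were 1206 and 2437 for B cells, 120731 and 163514 for neutrophils, 101583 and 111564 for dendritic cells and 47574 and 111627 for red pulp macrophages, sham first. Single genes carried some of these sums: without Siglech (101444 and 109449) the other 3 dendritic cell markers summed to 138.5 and 2114, and without Csf3r (106720 and 157350) the other 5 neutrophil markers to 14012 and 6164. Neutrophil markers went both ways, with Ly6g at 4.53 and Mmp8 at -3.97. The part of these cell types in the differences below was not tested, and in bulk RNA fewer cells of a type and less RNA per cell cannot be told apart.

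All 35 genes had a probe, 59 probes in all, each printed once, and none of them was flagged as an outlier or saturated. The first 30 of the 60 bases are shown for probes on which the largest differences and the disagreements between probes rest, as deposited and 5′ to 3′. Positions are of the whole probe as deposited, in mm9 (mouse), and whether a probe lies in a coding exon or a UTR was not looked up here. Acot1 and Acot2 are neighbouring paralogs, and the longest run of bases their probes share is 6 long.
Acot1, chr12:85358452-85358511, plus strand: tatcaaaatagtgctgattcaagggctggg
Acot2, chr12:85334553-85334612, plus strand: atggtagaaggagagaacaaactctgacaa
Bdh2, chr3:134967309-134967368, plus strand: gagtgtgactctttaatagtctctcgtctc
Ucp2, chr7:107647809-107647868, plus strand: ctcaaaagagccctaatggctgcctaccaa
Hadh, chr3:130936889-130936948, minus strand: agtcatggggttcttccactgaaatggaat
Acsl1, chr8:47621232-47621291, plus strand: gcctaacttcatactcgtattcttaattgc
Acsl5, brightest probe, chr19:55368743-55369331, plus strand: gcagccaagatcggggtaaagggatcattt
Acsl5, other probe, chr19:55372112-55372171, plus strand: tgacctcaatggctgcctccctggtcttga

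Of the 35 genes, 32 were well above background on both arrays and the other 3, Acot1, Bdh2 and Pdk4, on the sham array only. Among the 32, 10 (31.2%) were lower by 2-fold or more in 5/6Nx, as were 11.0% of the 15689 genes measured on both arrays. Another 3 (9.38%) were at least 2-fold higher, against 12.3% of all genes, so that 40.6% of the set and 23.3% of all genes were at least 2-fold apart. Because the set was chosen with earlier results of these data known, its shares may not be independent of these data. The lower genes were Ucp2, Hadh, Acot2, Cpt1a, Acaa2, Acads, Crat, Acsl3, Acox3 and Acadm, and the higher ones Acsl1, Bdh1 and Acsl5. The median over the 32 was -0.34, with quartiles of -1.16 and 0.14, beside -0.12 over all genes, with quartiles of -0.54 and 0.43. A further 0.932% of all 17705 genes above background on at least 1 array were on the sham array only with a bound of at least 2-fold, and Acot1, Bdh2 and Pdk4 belong to them. The scaling sets the zero: with spike-in controls as the scale the median of all genes rose by 0.38 and the count of lower members was 6, and with each array's median it fell by 0.15 and the count was 12. The count of higher members was 3 under both. Of all genes, 5.89% were then lower and 19.8% higher by the spike-ins, and 14.2% lower and 9.82% higher by the array medians. Among all genes at least 2-fold apart, the share of higher ones was 52.9% as scaled here, 77.1% by the spike-ins and 40.9% by the array medians. The error that the scanner software gives for a spot's signal came to between 0.20 and 0.34 for these differences, with a median of 0.20, and covers neither labelling nor animals.

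**Figure D1:**
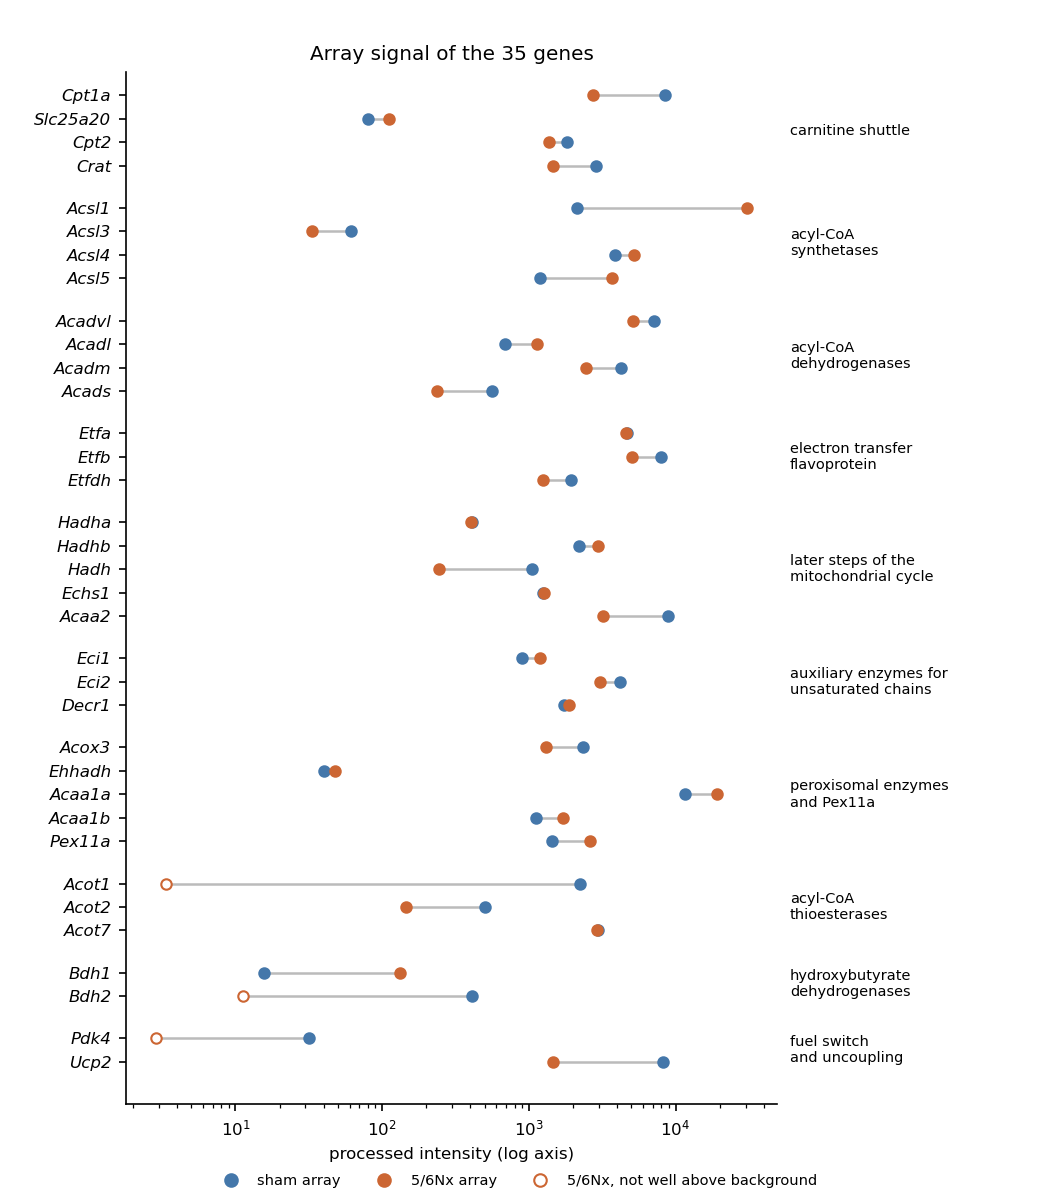
Processed intensity (log axis) of each of the 35 genes in the sham and the 5/6Nx sample, 1 array each, by role in the pathway; open circles were not well above background on the 5/6Nx array. Acot1, Bdh2 and Pdk4 have open circles, and Acsl1 reaches 30908 on the 5/6Nx array from 2143 on the sham array.

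**Figure D2:**
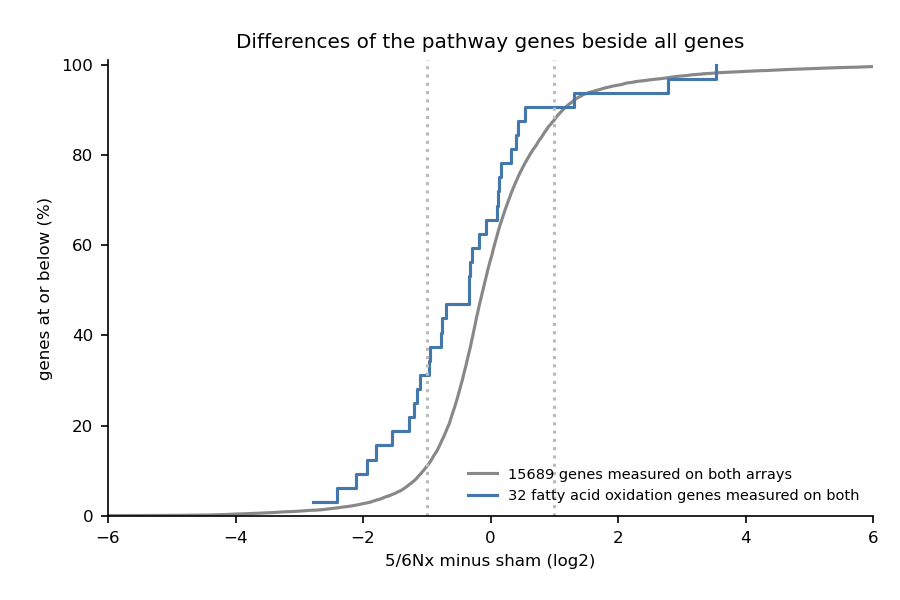
Cumulative share of genes (%) by difference, 5/6Nx minus sham in log2 units, for the 32 set members and for all 15689 genes measured on both arrays; dotted lines mark 2-fold. At the lower dotted line the set has reached 31.2% and all genes 11.0%.

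Entry into the mitochondrion differed most at its first step. Cpt1a, the outer-membrane carnitine palmitoyltransferase that malonyl-CoA inhibits, read 8437 in sham and 2740.0 in 5/6Nx, a difference of -1.93 or 3.81-fold, and 2.89% of all genes lay lower. Crat, the carnitine acetyltransferase that buffers short acyl-CoA, read 2864 and 1462, a difference of -1.28, and its dimmer probe differed by -1.71. With spike-in scaling Crat came to -0.90, inside 2-fold. Cpt2, which reforms acyl-CoA inside the mitochondrion, read 1819.5 and 1381 and differed by -0.71, and both its probes lay between -0.71 and -0.69. Slc25a20, the carnitine-acylcarnitine carrier between those steps, was dim, with intensities of 80.2 and 111.4 and a difference of 0.17, which was -0.01 with normexp background correction. Within the shuttle the carrier thus lay near 0 with this scaling and the transferases below it. With spike-in scaling the carrier came to 0.54 and Cpt2 to -0.33, and all the transferases again lay below the carrier.

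The acyl-CoA synthetases, which activate fatty acids and are the entry point for oxidation and for lipid synthesis alike, went both ways. Acsl1, the main long-chain synthetase of myeloid cells and adipocytes, read 2143 and 30908, a difference of 3.54 or 11.6-fold, and its other probes gave 3.27 and 2.80. Acsl1 was the member with the largest difference upward, and 1.85% of all genes lay higher. Acsl5, found on mitochondria and the endoplasmic reticulum, read 1198 and 3671 on its brightest probe, a difference of 1.31. A second Acsl5 probe, shown above, read 159.9 and 137.3, a difference of -0.53, the third was not above background on either array, and the mean of the measured probes was 0.39, inside 2-fold. Acsl3, the synthetase of lipid droplets, was dim at 61.3 and 33.1, a difference of -1.20, or -0.63 with normexp and -0.82 with spike-in scaling, both inside 2-fold. Acsl4, which prefers arachidonic acid, differed by 0.13 on its brightest probe, at 3846 and 5196, and by -0.39 and -0.42 on the others. Its value was -0.02 with median scaling and -0.23 as the mean of its probes.

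Those last Acsl4 probes are not independent of each other. They overlap by 44 bases with 1 substitution, A38T, counted from 1 at the 5′ end of the first, and the 30 bases around it are shown with the substituted base in capitals. The probe with A read 1322 and 1247, the probe with T 698.8 and 645.4, and their differences lay closer together than the signal error of each, 0.20.
Acsl4, probe with A: gagcgaatgtatgggggcaaataAaatgcg
Acsl4, probe with T: gagcgaatgtatgggggcaaataTaatgcg

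**Figure D3:**
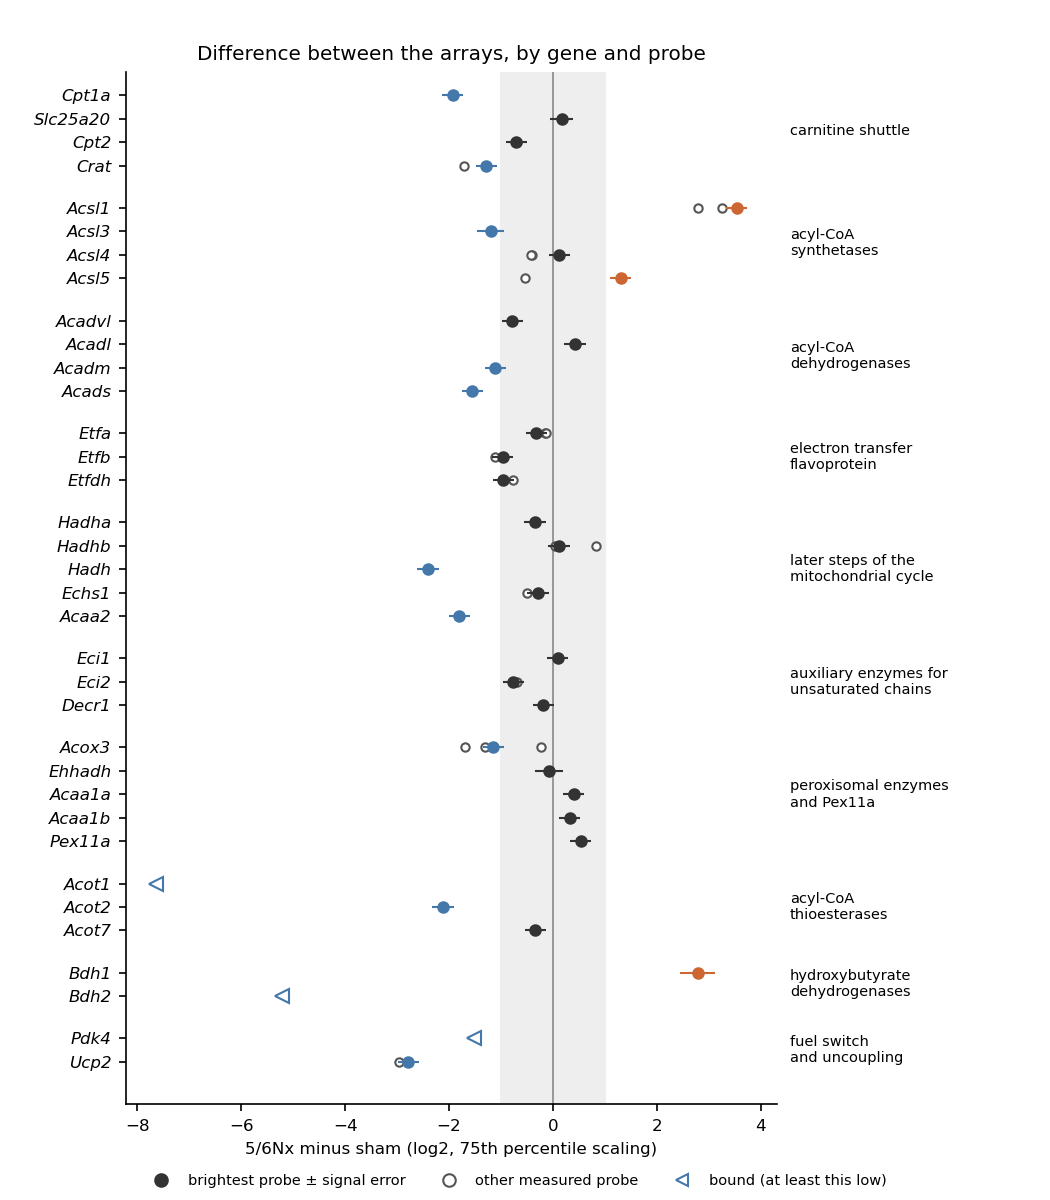
Difference between the arrays (5/6Nx minus sham, log2) for each gene, by role; filled points are the brightest measured probe with the scanner software's signal error, open circles the gene's other measured probes, triangles bounds, and the grey band marks less than 2-fold. Acsl1, Acsl5 and Bdh1 lie to the right of the band, and the second Acsl5 probe lies inside it on the other side of 0.

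The acyl-CoA dehydrogenases take the first step of each round and divide the work by chain length. Acads, for short chains, read 558.7 and 236.0, a difference of -1.55 or 2.93-fold. Acadm, for medium chains, read 4266 and 2451, a difference of -1.11, which was -0.73 with spike-in scaling. Acadvl, for very long chains, read 7130.4 and 5129 and differed by -0.78. Acadl, the long-chain enzyme, went the other way by 0.43, at 687.9 and 1146, so that the enzymes for short and medium chains were at least 2-fold lower and those for longer chains were not. The electron acceptors downstream were closer together. Etfb and Etfdh, the beta subunit of the electron transfer flavoprotein and the dehydrogenase that passes its electrons to ubiquinone, differed by -0.97 and -0.95, at intensities of 7965 and 5050.3 for Etfb and of 1943 and 1241 for Etfdh. Both lay just inside 2-fold, and just outside it at -1.11 and -1.10 with median scaling. Etfa, the alpha subunit, differed by -0.32 with probes from -0.32 to -0.14, and by 0.06 with spike-in scaling.

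The later steps of the mitochondrial cycle separated by enzyme. Hadh, the dehydrogenase for medium- and short-chain 3-hydroxyacyl-CoA, read 1045 and 244.2, a difference of -2.41 or 5.30-fold, and 1.77% of all genes lay lower. Acaa2, the soluble mitochondrial thiolase, read 8938 and 3182, a difference of -1.80 or 3.48-fold. Hadha and Hadhb, which together form the membrane-bound trifunctional protein for long chains, did not follow them. Hadha read 412.6 and 402.8 and differed by -0.34, or 0.03 with spike-in scaling. Hadhb read 2214 and 2974 and differed by 0.12, or -0.03 with median scaling, with probes from 0.05 to 0.83. Its brightest probe aligned over 49 bases with 4 mismatches to the probe of an unnamed transcript, which differed by 0.19, so the signal may be shared. The genes Hadha and Hadhb stand head to head, with starts 273 bases apart in the RefSeq table (GRCm38.p6). Echs1, the enoyl-CoA hydratase for short chains, differed by -0.29 at 1253 and 1272, and by 0.09 with spike-in scaling. Among the helper enzymes for double bonds, Eci2 differed by -0.76, Decr1 by -0.18 and Eci1 by 0.09. None of the 3 was at least 2-fold apart, beside 23.3% of all genes. Decr1 came to 0.19 with spike-in scaling and Eci1 to -0.05 with median scaling.

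Peroxisomal members lay on both sides of 0. Acox3, the acyl-CoA oxidase for branched chains, read 2336 and 1306, a difference of -1.15, which was -0.77 with spike-in scaling. Its other 3 probes differed by -1.69, -1.302 and -0.24, and the last of them lies farthest from the others along the gene. The peroxisomal thiolases Acaa1a and Acaa1b are close paralogs, and their probes lie on chromosome 9, the nearest of them 198.3 kb apart. Acaa1a read 11658 and 19061 and differed by 0.40, with its second probe at 0.39, and Acaa1b read 1112 and 1721 and differed by 0.32. Pex11a, which drives division of peroxisomes, read 1448 and 2601 and differed by 0.54. Ehhadh, the bifunctional enzyme, was dim at 40.2 and 47.4 and differed by -0.07, or 0.31 with spike-in scaling. Thus 1 of the 5 was at least 2-fold apart, beside 23.3% of all genes, and none was with spike-in scaling.

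The thioesterases, which hydrolyse acyl-CoA to free acid and coenzyme A, held the largest bound of the set. Acot1, the cytosolic enzyme, read 2219.6 in sham and 3.38 in 5/6Nx, where it was not well above background. It was at least 201-fold lower there, a bound against 13.7, the lowest intensity of any probe well above background on that array, and at least 155-fold lower with spike-in scaling. Acot2, its mitochondrial paralog and the next protein-coding gene, read 506.0 and 144.9, a difference of -2.11 or 4.32-fold. Acot7, a brain and macrophage enzyme that favours arachidonoyl-CoA, differed by -0.34 on both its probes, or 0.04 with spike-in scaling. The rest of the thioesterase cluster on chromosome 12 is outside the set. Acot3 and Acot5 differed by 0.12 and -0.42 on their brightest measured probes and Acot4 by -0.09, while second probes of Acot4 and Acot5 were above background on the sham array only, with bounds of -1.31 and -2.42. Acot6 was above background on the sham array only, a difference of at least 2.34-fold downward. The sham signals of Acot4 and Acot6 were dim, at 21.2 and 25.9, and those second probes read 27.5 and 59.4, so none of them could show a difference as large as the Acot1 bound.

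**Figure D4:**
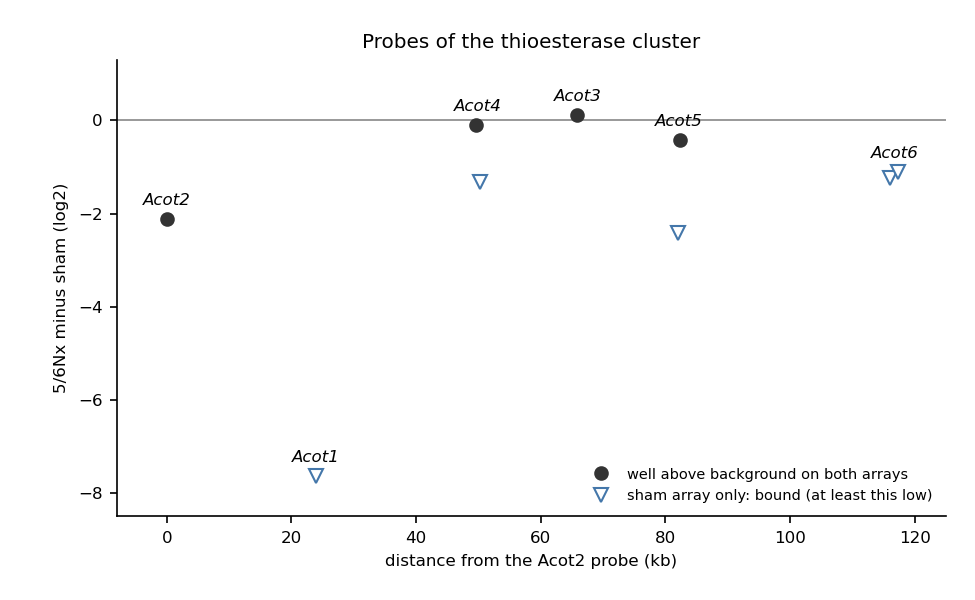
Difference (5/6Nx minus sham, log2) of probes of the thioesterase cluster against their distance from the Acot2 probe in kb; filled circles were well above background on both arrays, and open triangles are bounds for probes above background on the sham array only. The Acot1 bound of -7.65 lies 23.9 kb from the Acot2 probe at -2.11, and the circles of Acot3, Acot4 and Acot5 lie between -0.42 and 0.12.

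The hydroxybutyrate dehydrogenases went in opposite directions. Bdh2, the cytosolic enzyme, read 412.2 in sham and 11.2 in 5/6Nx, not well above background there, and was at least 37.3-fold lower, or at least 28.7-fold lower with spike-in scaling. Bdh1, the mitochondrial enzyme that interconverts acetoacetate and hydroxybutyrate, read 15.6 and 133.0, a difference of 2.79. Its sham signal lay close to 12.8, the lowest intensity well above background on that array, and its other probe was well above background in 5/6Nx alone, at 48.6 against 3.13. With normexp, which models the background and also adds an offset of 50, the Bdh1 difference was 1.002, and these changes were not separated. The normexp intensities of Bdh2, with the same offset, were 409.2 in sham and 71.8 in 5/6Nx. Its 5/6Nx signal of 11.2 lay close to the 13.7 that sets its bound.

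Pdk4 and Ucp2, PPAR targets that respectively restrain glucose oxidation and export metabolites from mitochondria, were both lower. Pdk4, a kinase that switches off pyruvate dehydrogenase, was dim on the sham array at 31.8 and not well above background on the 5/6Nx array at 2.86. It was at least 2.87-fold lower, or at least 2.21-fold lower with spike-in scaling. With normexp, the offset of 50 included, its intensities were 93.6 in sham and 58.0 in 5/6Nx. Ucp2 read 8189 and 1469.9, a difference of -2.79 or 6.90-fold, and its second probe gave -2.97. Among members measured on both arrays Ucp2 had the largest difference downward, and 1.26% of all genes lay lower. Ucp3, its neighbour on chromosome 7 and outside the set, read 10107 and 1772, a difference of -2.82, with its probe 14.9 kb from the nearer Ucp2 probe.

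Other genes of the pathway were taken from lists in the same way, and their counts stand beside the 12.3% of all genes that were higher and the 11.0% that were lower. With spike-in scaling those shares were 19.8% and 5.89%, and the median of all genes was 0.26. With median scaling they were 9.82% and 14.2%, and that median was -0.27. Of 20 measured genes of mitochondrial oxidation of fatty and branched acids, 5 were lower by 2-fold or more and 1 was higher, with a median of -0.36. Slc27a1, a fatty acid transporter, differed by -3.54 (1649 and 175.2), Ivd, the isovaleryl-CoA dehydrogenase, by -1.67 and Acad10 by -1.502, whereas Fabp4, a fatty acid chaperone, differed by 1.34. Fabp4 was dim and came to 0.86 with normexp. Cpt1c, the brain form of carnitine palmitoyltransferase, was above background on the 5/6Nx array only, at least 1.67-fold higher. With spike-in scaling the list median was 0.01, beside 0.26 over all genes, with 3 lower and 2 higher.

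Of 17 further peroxisomal genes 4 were lower by 2-fold or more and 1 was higher, with a median of -0.63. Hsd17b4, the main bifunctional enzyme, read 5139 and 2222 and differed by -1.52. Slc25a17, a cofactor carrier of the peroxisome, differed by -1.06, and Phyh, which starts the breakdown of phytanic acid, by 1.11, or 0.96 with median scaling. A second Phyh probe gave 0.73, inside 2-fold. Abcd2, a very-long-chain acyl-CoA transporter, was above background on the sham array only, at least 7.57-fold lower. With spike-in scaling the list median was -0.25, with 1 lower, Hsd17b4 at -1.14, and 1 higher. None of 8 other measured thioesterases was at least 2-fold apart, and 2 were lower with median scaling, Them4 at -1.12 and Acot13 at -1.10. Their median was -0.0043, or 0.37 with spike-in scaling, and Them4 and Acot13 lay lowest at -0.97 and -0.95, while Acot10 at 0.35 lay highest. Of 4 measured ketone body genes Oxct1, which uses ketone bodies, was higher by 1.21 (1198 and 3438), while Aacs differed by -0.24 and Acat1 by -0.02, or 0.14 and 0.36 with spike-in scaling. A second Oxct1 probe gave 0.96, inside 2-fold. Among the 9 measured kinases and phosphatases of pyruvate dehydrogenase and uncoupling proteins, 3 were lower and 1 higher, with a median of -0.58, or -0.20 with spike-in scaling. Beside Ucp3 these were Pdk2 at -1.94 and Slc25a27 at -1.09, and Pdk3 at 1.304, so Pdk2 and Pdk3 lay on opposite sides of 0. With spike-in scaling Slc25a27 came to -0.72, and with normexp to -0.72.

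Of 11 measured transcription factors and coactivators 2 were at least 2-fold higher and 1 lower, near the shares of all genes, with a median of -0.24, which was 0.13 with spike-in scaling. Ppargc1b, a coactivator of oxidative genes, read 246.6 and 969.3 and differed by 1.67. Pparg and Ppara, the receptors for fatty acid ligands, were dim and differed by 1.03 (86.5 and 219.1) and 0.99 (161.6 and 397.1), or 0.63 and 0.77 with normexp. Rxra, the partner with which they bind DNA, read 18515.5 and 9312 and was 2.46-fold lower; its log2 difference was -0.92, inside 2-fold, with spike-in scaling. Ppard differed by -0.47, Rxrb by -0.53, Esrra by 0.47, Tfam by 0.29, Nrf1 by -0.27, Sirt3 by -0.24 and Prkaa1 by -0.32. Nrf1, Sirt3 and Prkaa1 came to 0.11, 0.13 and 0.06 with spike-in scaling. Ppargc1a was above background in 5/6Nx alone, at least 1.305-fold higher. Among 11 measured genes of malonyl-CoA and lipid droplets 5 were lower and none higher, and the median was -0.85, or -0.48 with 4 lower by spike-in scaling. The genes with the largest differences were Angptl4, a lipase inhibitor, at -7.02, Cd36, a fatty acid importer, at -4.99, Hilpda, an inhibitor of lipolysis, at -4.49, and Plin2, which coats droplets, at -3.60. Mgll, the monoacylglycerol lipase, was above background on the 5/6Nx array only, at least 16.9-fold higher.

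PPARs bind a direct repeat of AGGTCA with 1 base between the copies, and this pattern was sought in the promoters, 250 bases before to 50 after the start, on both strands and with at most 2 mismatches. RefSeq promoters on GRCm38.p6 matched 32 of the 35 genes, 34 promoters in all. The pattern was found in 3 of the 34 (8.82%), those of Echs1, Etfa and Slc25a20, and in 3.86% of 32851 promoters of all genes, and no promoter of the set held it without a mismatch. A copy of AGGTCA without mismatch on either strand, which among the 3 repeat matches occurs in that of Echs1, stood in 4 of the 34 (11.8%), those of Acadm, Acadvl, Cpt1a and Echs1, and in 16.3% of all promoters. None of the 11 promoters of genes at least 2-fold lower or above background on the sham array only held the repeat, which says only that these letters are not in this window. Acaa2 and Crat, which were lower too, had no promoter to search. With the repeat in 3.86% of all promoters, none among so few says little. The median GC content was 59.5% in the promoters of the set and 52.7% in all. The Echs1 and Etfa matches are shown with 20 bases on each side, the match in capitals, on the strand of the gene; the Etfa match reads on the opposite strand.
Echs1, chr7:140116472-140116524, minus strand: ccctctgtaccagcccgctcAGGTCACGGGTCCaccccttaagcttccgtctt
Etfa, chr9:55512288-55512340, minus strand: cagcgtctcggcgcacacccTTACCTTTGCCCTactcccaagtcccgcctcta

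Of the 13 members at least 2-fold apart, 8 stayed so on their side in every alternative in which they were measured. They were Ucp2, Hadh, Acot2, Cpt1a, Acaa2 and Acads below, and Acsl1 and Bdh1 above. All 13 kept their side of 0. Of the 19 members between, 9 kept 1 sign. Several of the alternatives could hardly move a value, as set out in the last section.

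**Figure D5:**
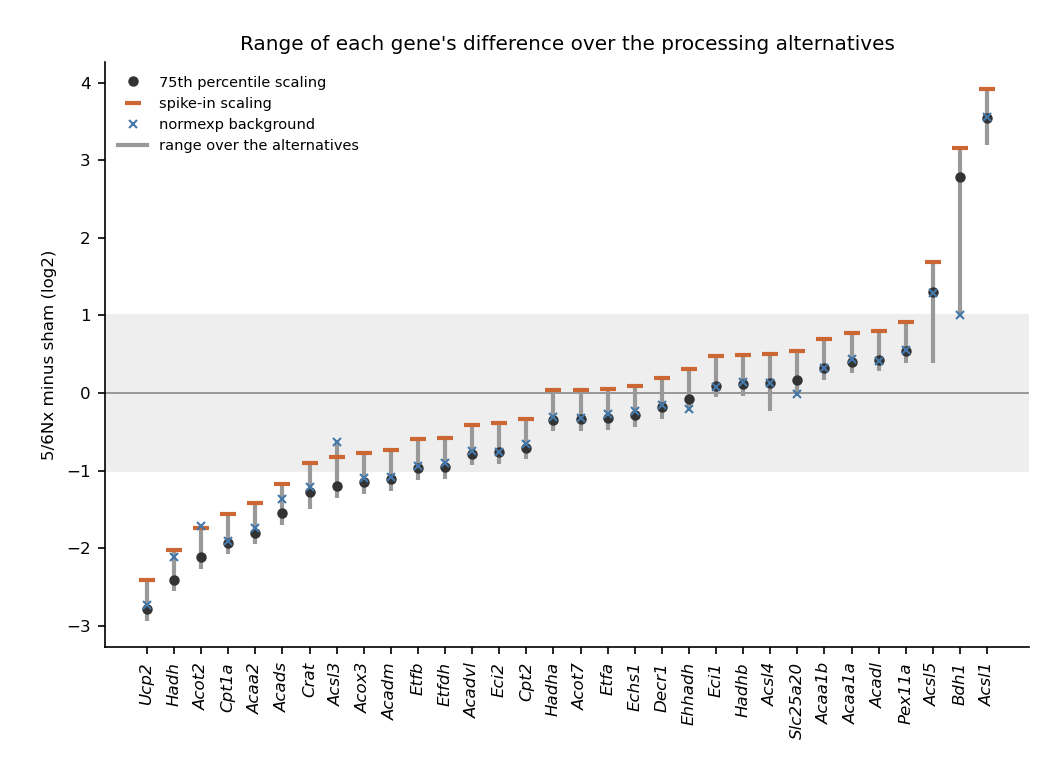
Difference (5/6Nx minus sham, log2) of the 32 members measured on both arrays, in order of the main value, with the range over the processing alternatives as a grey line and the spike-in and normexp values marked; the grey band marks less than 2-fold. The Bdh1 line reaches down to 1.002 with normexp, and the Ucp2 line stays between -2.94 and -2.41.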

How the data were processed

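Per the file headers, the deposited intensity is background-subtracted and detrended within each array by Agilent Feature Extraction (9.5.1.1 per the submitters' processing notes, 10.7.1.1 per the parameter block), with no scaling between arrays. The authors' value table, a further intensity on a linear scale whose sorted columns nearly coincide, with the method not given in the sources used here, served as an alternative. Spots of a probe were averaged as log2 values. All non-control spots set the 75th percentile, an intensity of 442.1 (sham) and 547.5 (5/6Nx). Of 37074 gene names, the 24787 in the RefSeq table (GRCm38.p6) were kept. Well above background is the software's call. A gene above background on 1 array is given as a bound. The bound is against the other array's lowest intensity well above background, or the probe's own signal there if higher. A higher floor would give smaller bounds. The cut is 2-fold, and no p-value was computed. The members and lists were chosen with earlier results of these data known. Named genes were every member, up to 4 genes with the largest difference and the largest bound of each pathway list, and all measured regulators. Some genes that this rule names are not reported here. Neighbours of Acot2 and Ucp2 were named by position, and single markers after their values were seen. Normexp used limma 3.58.1 with offset 50 in R 4.3.3. Other steps ran in Python 3.11.15. Of these, only the percentile scaling and the step from spots to probe and gene values were tested on simulated data. Protein identities were not computed here. The number of arrays limits the precision.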

Additional observations from a re-analysis of the deposited data

How the results depend on the processing

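Each value was recomputed under 10 alternatives of scaling, background correction, the authors' values, outlier spots, probe choice and the filter on dim probes. The count of lower members was 6 of 32 with spike-in scaling (5.89% of all genes), 12 with median scaling (14.2%), 9 with normexp (7.88%), 8 of 27 among brighter probes (11.6%) and 13 of 35 with dim probes kept (10.9%). That of higher members was 2 or 3, while the share of all genes ran from 7.41% with normexp to 19.8% with spike-in scaling. The median over measured members, -0.34, was -0.49 with median scaling, 0.0353 with spike-in scaling, -0.71 with dim probes kept and -0.71 when bounds were included; it kept its side of 0 except with spike-in scaling. The percentile, median and spike-in scalings shift all genes alike, so the members' median minus that of all genes is -0.22 in each by construction; it was -0.19 with quantile scaling, -0.17 with normexp, -0.15 among brighter probes, -0.54 with dim probes kept and -0.64 when bounds were included. The last pair of alternatives add the 3 genes above background on the sham array only. Of the values of single members, 274 moved by less than the signal error and 41 by more, and none that was at least 2-fold apart changed sign. These counts do not measure stability, because several settings fixed them in advance. Keeping dim probes, requiring brighter probes and adding bounds left the value of each member measured on both arrays unchanged. Median scaling moved every member by -0.15 and spike-in scaling by 0.38, against signal errors of 0.20 to 0.34. For the other pathway lists, median, spike-in and normexp settings were added after the data were seen. No paired analysis was possible because each group has 1 array. Dim signals limit Bdh1, Pdk4, Acsl3, Slc25a20 and Ehhadh.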
